A study of Mus musculus with 4 samples.

Results

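The ISG15 conjugation system consists of *Isg15*, a small ubiquitin-like protein, and the enzymes that attach it to other proteins and remove it again. It was followed here in 6 genes, *Isg15*, *Uba7*, *Ube2l6*, *Herc6*, *Usp18* and *Trim25*, named by the roles of their proteins, with earlier results of these data known. Each gene matched 1 of the 32757 RefSeq transcript IDs in the count files, and all 6 were among the 13855 transcripts with enough reads to be tested. Total RNA depleted of rRNA was sequenced from immortalized mouse dermal fibroblasts (imMDFs), a culture of connective tissue cells from skin. The *Tmpo* KO libraries (Lap2alpha -/-) and the *Tmpo* WT libraries (Lap2alpha +/+) numbered 2 each, replicate 1 at passage 34 and replicate 2 at passage 42 of both genotypes, with no further treatment. *Tmpo* encodes LAP2alpha, a protein that binds A-type lamins inside the nucleus, and the study asked how its loss changes lamin binding to the genome and gene expression. The knockout is a deletion of *Tmpo* exon 4. No more than 1 line per genotype is named, so effects of the genotype and of the line cannot be told apart. The sources do not say that replicates are separate cultures beyond their passages, so p-values measure the spread between these libraries, which here includes passage and may be technical.

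The KO libraries of passages 34 and 42 held 15786136 and 19603812 reads given to transcripts, and the WT libraries held 12168433 and 15677378. Levels are given as CPM, counts divided by the library size in units of 1e+06 reads, after TMM scaling, which adjusts for differences in RNA composition between libraries. The LAP2alpha transcript of *Tmpo* (NM_011605) had 6 counts in each KO library, against 903 and 1324 counts in the WT libraries (log2 fold change −7.86, edgeR quasi-likelihood adjusted p = 1.26e-06). The counts went with the genotype label in every library, although a deleted exon gives no reads however much transcript is made. The counts of replicates varied beyond counting error, since chi-square divided by its degrees of freedom was 37.3 between the KO libraries and 22.5 between the WT libraries. Of 10 fibroblast marker genes 9 were tested, and the summed level of the 10, with the counted *Pdgfrb* ID at 0 in all libraries, lay between 11430 and 15630 CPM in the KO libraries and between 12810 and 13700 CPM in the WT libraries.

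ISG15 is made in large amounts when cells sense interferon, a secreted alarm signal of virus infection. UBA7 is the activating enzyme that loads ISG15, UBE2L6 is the conjugating enzyme that carries it, and HERC6 is the main ligase that places it on target proteins in the mouse. TRIM25 is a ligase for ubiquitin and for ISG15 that also acts on the RNA sensor RIG-I. USP18 cleaves ISG15 from its targets and, separately from that activity, holds back signalling at the type I interferon receptor. Genes of this kind are often switched on through the interferon-stimulated response element (ISRE), a promoter motif bound by complexes of STAT and IRF proteins.

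Since the 6 genes are known as interferon-stimulated, their promoters were searched for the core of this element, written as GAAA, any 2 bases and GAAA again, on both strands and with overlapping matches counted. RefSeq windows of mouse assembly GRCm38.p6, from 250 bases before to 50 after the start site, were at hand for 5 of the 6 genes, *Isg15*, *Uba7*, *Ube2l6*, *Herc6* and *Trim25*. The exact core was found in 1 of the 5, that of *Isg15*, where 3 matches began at positions −78, −72 and −66 relative to the start site and ran into each other. Among all 32851 RefSeq promoter windows of this length, 3.44% held it. The *Isg15* window is on the minus strand at chr4:156200769-156201068, printed 5′ to 3′ of that strand, with the 3 matches in capitals because they are the only exact ones among the genes.
Isg15: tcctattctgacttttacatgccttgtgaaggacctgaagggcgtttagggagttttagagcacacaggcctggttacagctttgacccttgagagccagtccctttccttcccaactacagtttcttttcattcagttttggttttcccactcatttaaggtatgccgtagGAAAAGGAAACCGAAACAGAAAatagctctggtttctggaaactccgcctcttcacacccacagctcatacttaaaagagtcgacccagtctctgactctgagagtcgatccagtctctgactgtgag

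With 1 mismatch allowed, a criterion chosen after the sequences had been seen, 4 of the 5 windows held the core (*Isg15*, *Uba7*, *Herc6* and *Trim25*), against 35.4% of all windows, so that a match of this kind is common. The part nearest to the start site is shown for *Uba7* and *Trim25*, whose near matches lie closest to it, from 100 bases before to 50 after, with the near matches in capitals. The *Uba7* stretch is on the plus strand at chr9:107975467-107975616, with matches that begin at positions −27, −21 and 4. The *Trim25* stretch is on the plus strand at chr11:88999303-88999452, with matches that begin at positions −10 and −4.
Uba7: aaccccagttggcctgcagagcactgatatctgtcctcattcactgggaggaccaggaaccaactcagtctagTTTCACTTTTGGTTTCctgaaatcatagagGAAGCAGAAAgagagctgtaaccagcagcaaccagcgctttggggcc
Trim25: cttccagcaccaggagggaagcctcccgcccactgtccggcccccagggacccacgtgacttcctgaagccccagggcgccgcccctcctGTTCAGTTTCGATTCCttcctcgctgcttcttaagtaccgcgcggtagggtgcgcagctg

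In *Herc6* the nearest such match began at position −197, and *Ube2l6* had none in its window. A second interferon motif, the gamma-activated sequence TTCNNNGAA, was in 0 of the 5 windows and in 8.3% of all windows. The 5 windows differed in base composition, with a GC content of 46.3% in *Isg15*, 44.7% in *Uba7*, 59.7% in *Ube2l6*, 49.0% in *Herc6* and 62.7% in *Trim25*. A match describes these letters alone, and binding was not measured in these libraries.

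The system was higher in *Tmpo* KO imMDFs in parts. Of the 6 genes, *Usp18* and *Trim25* rose at an adjusted p under 0.05 in edgeR's quasi-likelihood test and the other 4 did not pass, while 1.51% of all tested transcripts were called higher. Both KO libraries lay above both WT libraries in 4 genes, *Isg15*, *Herc6*, *Usp18* and *Trim25*, which was so for 21.9% of all tested transcripts. With 2 libraries per genotype, an exact permutation test of a single gene cannot give a two-sided p below 0.333. With a replicate block in the same test, where replicate number and passage are one and the same, 4 of the 6 genes were called, *Isg15* and *Herc6* in addition, while the calls over all tested transcripts numbered 1092 in place of 381. At passage 42 all 6 genes were higher in KO than in WT, as were 7023 of all 13855 tested transcripts. At passage 34 this held for 4 of the 6 genes and for 7030 of all 13855, so 4 of 6 is not far from that share. The median log2 fold change of the 6 genes was 1.38, against 0.02 over all tested transcripts.

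**Figure D1:**
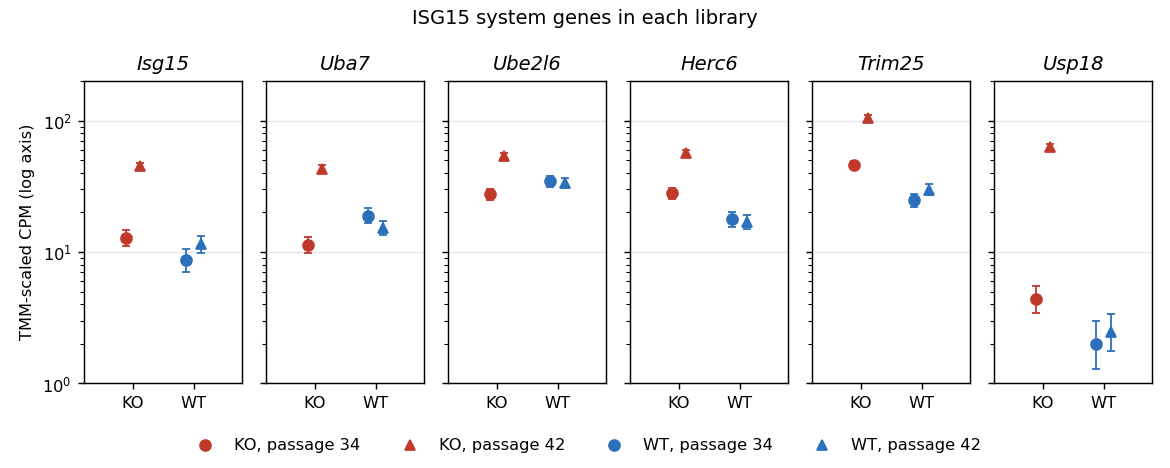
Level of each gene of the ISG15 system in the 4 libraries, in TMM-scaled CPM on a log axis, with KO left of WT. Each point is 1 library (passage 34 or 42) and its bar is the 95% Poisson interval, which covers counting error only. The KO library of passage 42 was the highest of the 4 in every gene, from 43.1 CPM in *Uba7* to 105 CPM in *Trim25*.

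*Isg15*, the modifier itself, lies on the minus strand of chromosome 4 in mm9 from 155573533 to 155574927, in 2 exons (NM_015783). Here and below, exon numbers are for all annotated transcripts of a gene merged, and the ID in brackets is the one counted. It had 12.8 CPM (208 counts) and 44.8 CPM (865 counts) in the KO libraries of passages 34 and 42, against 8.64 CPM (103 counts) and 11.4 CPM (180 counts) in the WT libraries. Both KO libraries were above both WT libraries, but the KO library of passage 34 lay close to the WT library of passage 42. The mean was 28.8 ± 22.6 CPM in KO and 10.0 ± 1.98 CPM in WT (SD, n = 2 each). The log2 fold change of 1.52 (standard error 0.475) did not pass edgeR's quasi-likelihood test (adjusted p = 0.156). DESeq2 (adjusted p = 0.0240) and edgeR's likelihood ratio test (adjusted p = 0.0478) made the call. So did the quasi-likelihood test with the replicate block (adjusted p = 3.63e-04) or with no filter on low counts (8.30e-05). The exact test (adjusted p = 0.0540) did not. Nor did the quasi-likelihood test with RLE size factors (0.1348), library totals (0.1384), a minimum of 1 CPM in all 4 libraries (0.1729) or sums per gene symbol (0.1725). Without KO replicate 2 the log2 fold change was 0.30 and without KO replicate 1 it was 2.14. Only the effect size is given for these fits, since 1 KO library remains and the KO group has no spread. A stretch of 615 of the 756 bases of the *Isg15* transcript has a near copy of 95.9% identity on chromosome 17 of mm9, from 46543911 to 46544524. Reads that match both places equally well do not pass the limit on mapping quality, and how many *Isg15* reads were left uncounted in this way was not measured.

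*Uba7*, the activating enzyme, lies on the plus strand of chromosome 9 from 107877895 to 107886387, in 24 exons (NM_023738). It had 11.4 CPM (185 counts) and 43.1 CPM (832 counts) in the KO libraries of passages 34 and 42, against 19.0 CPM (226 counts) and 15.3 CPM (240 counts) in the WT libraries. The KO group held both the lowest and the highest of the 4 values, so the groups overlapped. The mean was 27.2 ± 22.4 CPM in KO and 17.1 ± 2.62 CPM in WT (SD, n = 2 each), a log2 fold change of 0.67 (standard error 0.474) that did not pass (edgeR quasi-likelihood adjusted p = 0.660). Between the libraries of passage 34 the KO to WT ratio was 0.598, with a 95% interval of 0.490 to 0.730 for counting error only. Between those of passage 42 it was 2.82 (2.44 to 3.27), so the libraries of the 2 passages differed in opposite directions beyond counting error.

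*Ube2l6*, the conjugating enzyme, lies on the plus strand of chromosome 2 from 84638985 to 84650492, in 5 exons (NM_019949). It had 27.4 CPM (447 counts) and 53.7 CPM (1038 counts) in the KO libraries of passages 34 and 42, against 34.7 CPM (413 counts) and 33.6 CPM (528 counts) in the WT libraries. The order was that of *Uba7*, with the WT libraries close together between a lower and a higher KO library. Its log2 fold change of 0.25 (standard error 0.301) was the smallest of the 6 and did not pass (edgeR quasi-likelihood adjusted p = 0.841). The KO to WT ratio was 0.791 (95% interval 0.691 to 0.907, counting error only) at passage 34 and 1.60 (1.44 to 1.78) at passage 42. The *Ube2l6* transcript matches 351 other places of the genome over at least 300 bases at 90% identity or more, so the same limit holds for its repeated stretch.

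*Herc6*, the ligase, lies on the plus strand of chromosome 6 from 57530986 to 57615130, in 24 exons (NM_025992). It had 28.0 CPM (456 counts) and 56.7 CPM (1096 counts) in the KO libraries of passages 34 and 42, against 17.7 CPM (211 counts) and 17.0 CPM (267 counts) in the WT libraries. The groups did not overlap, and the WT libraries were nearly equal. The mean was 42.3 ± 20.3 CPM in KO and 17.3 ± 0.514 CPM in WT (SD, n = 2 each). Its log2 fold change of 1.29 (standard error 0.323) did not pass (edgeR quasi-likelihood adjusted p = 0.0653). It was called by DESeq2 (adjusted p = 0.0066), by edgeR's exact test (adjusted p = 0.0108) and with library totals in place of TMM scaling (quasi-likelihood adjusted p = 0.0494). The quasi-likelihood test did not call it with RLE size factors (adjusted p = 0.0537), a minimum of 1 CPM in all 4 libraries (0.0721) or sums per gene symbol (0.0749). With the replicate block the log2 fold change was 1.21 (quasi-likelihood adjusted p = 1.81e-04). Without KO replicate 2 it was 0.65 and without KO replicate 1 it was 1.70, with 1 KO library left in each fit.

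*Trim25*, the ligase shared with the RIG-I pathway, lies on the plus strand of chromosome 11 from 88860690 to 88881607, in 9 exons (NM_009546). It had 46.2 CPM (754 counts) and 105 CPM (2034 counts) in the KO libraries of passages 34 and 42, against 24.8 CPM (295 counts) and 29.8 CPM (469 counts) in the WT libraries. Both KO libraries were above both WT libraries, with the largest gap between the groups in CPM of the 6 genes. The mean was 75.8 ± 41.7 CPM in KO and 27.3 ± 3.58 CPM in WT (SD, n = 2 each), and *Trim25* rose by a log2 fold change of 1.47 (standard error 0.337, edgeR quasi-likelihood adjusted p = 0.0432). The call was lost with counts summed per gene symbol (quasi-likelihood adjusted p = 0.0512), although the counts of *Trim25*, with 1 ID, stayed the same. The log2 fold change was 0.72 without KO replicate 2, 1.36 without WT replicate 1 and 1.61 without WT replicate 2. The call could not be checked in these fits, since 1 library of a genotype then remains.

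*Usp18*, the protease that takes ISG15 off again, lies on the plus strand of chromosome 6 from 121195924 to 121220934, in 11 exons (NM_011909). It had 4.42 CPM (72 counts) and 62.6 CPM (1209 counts) in the KO libraries of passages 34 and 42, against 2.01 CPM (24 counts) and 2.48 CPM (39 counts) in the WT libraries. The groups did not overlap, yet the KO libraries lay much farther from each other than the KO library of passage 34 lay from WT. The mean was 33.5 ± 41.1 CPM in KO and 2.25 ± 0.330 CPM in WT (SD, n = 2 each). *Usp18* rose by a log2 fold change of 3.89 (standard error 0.902, edgeR quasi-likelihood adjusted p = 0.0458), which put it at rank 9 of the 13855 tested transcripts by fold change. The call was lost with DESeq2 (3.88, adjusted p = 0.151), and in the quasi-likelihood test with a minimum of 1 CPM in all 4 libraries (adjusted p = 0.0580). It was also lost there with counts summed per gene symbol (adjusted p = 0.0582), although the counts of *Usp18*, with 1 ID, stayed the same. Without the KO library of passage 42 the log2 fold change was 0.92. It was 3.77 without WT replicate 1 and 4.05 without WT replicate 2. The call could not be checked in these fits, since 1 library of a genotype then remains.

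**Figure D2:**
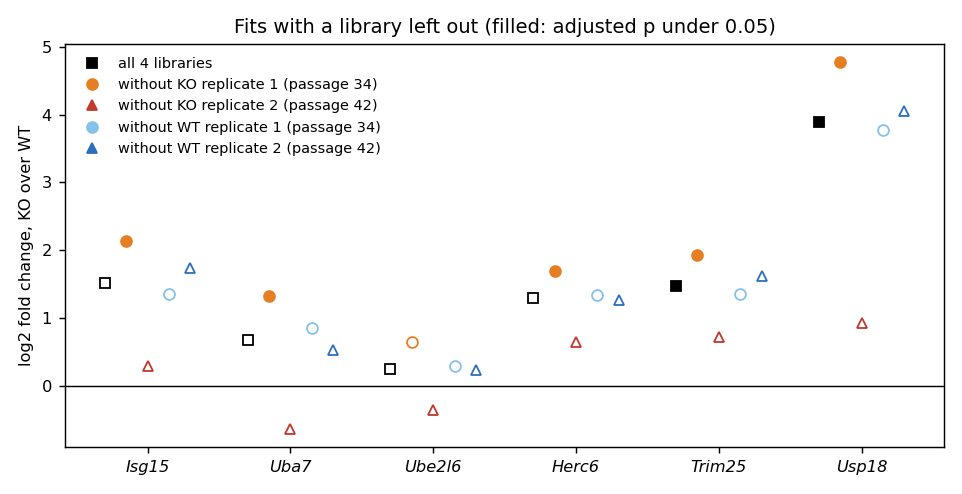
Log2 fold change of KO over WT for each gene with all 4 libraries and with each library left out in turn (edgeR quasi-likelihood test, filled where the adjusted p was under 0.05). With a library left out, 1 library of that genotype remains, so the filling of those points carries no spread within that genotype. Without KO replicate 2, the library of passage 42, *Usp18* stood at 0.92 in place of 3.89, and *Uba7* and *Ube2l6* were below 0 at −0.63 and −0.36.

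The difference between the genotypes was larger at passage 42 than at passage 34 in each of the 6 genes. Each passage held 1 library per genotype, so the differences within a passage have no replicate check and were not tested. On the log2 CPM scale with a prior count of 2, *Usp18* differed between KO and WT by 1.09 at passage 34 and by 4.59 at passage 42, and *Trim25* by 0.90 and 1.81. The values of *Herc6* were 0.66 and 1.73 and those of *Isg15* 0.56 and 1.96. *Uba7* was at −0.73 and 1.49 and *Ube2l6* at −0.34 and 0.68, so both lay lower in KO at passage 34 and higher at passage 42. The median difference of the 6 genes was 0.61 at passage 34 and 1.77 at passage 42, against 0.01 over all tested transcripts at either passage. Ranked by the difference at passage 42 among the 13855 tested transcripts, *Usp18* was at rank 4, *Isg15* at 174, *Trim25* at 202, *Herc6* at 225, *Uba7* at 313 and *Ube2l6* at 1359. By the difference at passage 34 the highest of them, *Usp18*, was at rank 666 and the lowest, *Uba7*, at rank 12594.

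**Figure D3:**
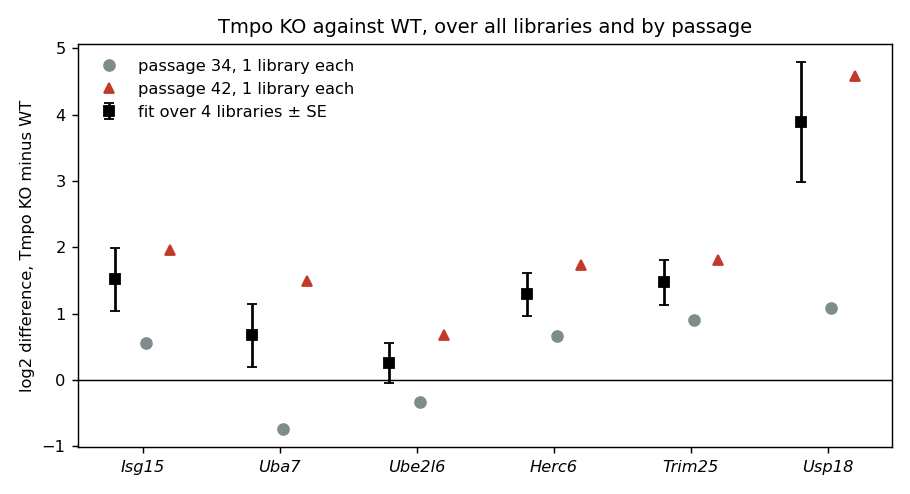
KO minus WT difference on the log2 scale for each gene of the ISG15 system, as the edgeR fit over 4 libraries (squares, bars are ± 1 standard error) and as the difference in log2 CPM (prior count of 2) between the single libraries of passage 34 (circles) and of passage 42 (triangles), which carry no error bar. All 6 genes lie above 0 at passage 42, and *Uba7* (−0.73) and *Ube2l6* (−0.34) lie below 0 at passage 34.

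The same values can be read within each genotype. In the KO line the library of passage 42 was above that of passage 34 in all 6 genes, by a ratio of 14.2 for *Usp18* (95% interval 11.2 to 18.2, counting error only). The ratio was 3.79 (3.23 to 4.47) for *Uba7* and 3.51 (3.01 to 4.10) for *Isg15*. For *Trim25* it was 2.28 (2.09 to 2.48), for *Herc6* 2.03 (1.82 to 2.27) and for *Ube2l6* 1.96 (1.75 to 2.19). In the WT line the same ratio was between 0.805 in *Uba7* (0.668 to 0.969) and 1.32 in *Isg15* (1.03 to 1.70). The median difference between passages over the 6 genes was 1.49 on the log2 scale in the KO line and 0.11 in the WT line. The spread of the KO group in these genes is the difference between its library of passage 34 and its library of passage 42. Since passage, library and culture coincide, their parts in this spread cannot be told apart.

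**Figure D4:**
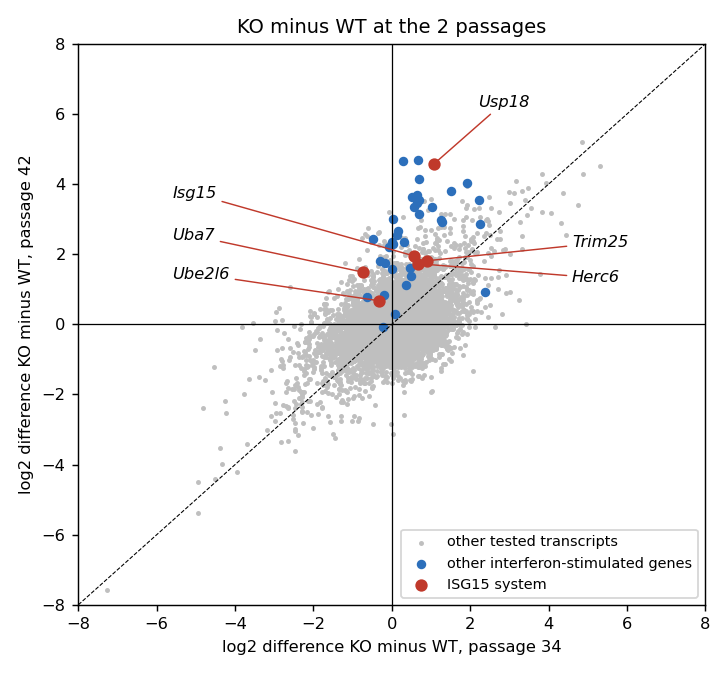
KO minus WT difference in log2 CPM at passage 34 (x axis) and passage 42 (y axis) for all tested transcripts, with the 6 genes of the ISG15 system and the list of other interferon-stimulated genes marked. The dashed line marks equal differences at both passages. All 6 genes lie above it, *Usp18* farthest with 1.09 and 4.59.

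Levels of the 6 genes were compared with each other per kilobase of their longest coding transcript in the mm9 annotation, since a longer transcript gives more reads. In the WT libraries *Ube2l6* was the most abundant, with 22.2 and 21.5 CPM per kilobase at passages 34 and 42, followed by *Isg15* with 11.4 and 15.1 CPM per kilobase. *Usp18* was the least abundant in both, with 1.14 and 1.40 CPM per kilobase, and *Herc6*, with 3.35 and 3.22 CPM per kilobase, lay next to it. *Uba7* and *Trim25* were in between, with *Uba7* above *Trim25* at passage 34 and below it at passage 42. The KO library of passage 34 kept *Ube2l6* first (17.6 CPM per kilobase) and *Usp18* last (2.50 CPM per kilobase), with *Isg15* at 16.9 CPM per kilobase next to *Ube2l6*. In the KO library of passage 42 *Isg15* was first with 59.2 CPM per kilobase, followed by *Usp18* with 35.4 and *Ube2l6* with 34.4 CPM per kilobase, and *Herc6* was last with 10.7 CPM per kilobase. The order of *Usp18* and *Ube2l6* in that library, and of *Ube2l6* and *Isg15* in the KO library of passage 34, rests on differences too small to be read without replicates of each passage. Uncounted reads of *Isg15*, *Ube2l6* and *Trim25*, which has 1 near copy of at least 300 bases at 90% identity or more, would bear on these levels.

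The transcripts whose centred log2 CPM profiles over the 4 libraries lay nearest to the mean profile of the 6 genes were not interferon genes. They were *Col12a1* and *Col11a1*, both collagen chains, and *Pcdhga8* and *Pcdhga9*, cell adhesion proteins of the gamma protocadherin cluster. *Cdo1*, an enzyme of cysteine breakdown, was also among them. Near copies of these transcripts were not searched for, so the certainty of their counts was not assessed. Their Euclidean distances from the mean profile were between 0.239 and 0.317 on the log2 scale, and their log2 fold changes between 1.22 and 1.75. None of the 5 passed edgeR's quasi-likelihood test, with the lowest adjusted p at 0.0863. Of the 6 genes themselves, *Isg15* lay nearest to their mean at 0.228 and *Usp18* farthest at 2.17. A profile over 4 libraries has few points.

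Genes around the system were counted in lists, each gene by its transcript ID with the most reads. Reads shared by several IDs of a gene were set aside as ambiguous in these files, and the receptor kinase *Tyk2* and the transcription factors *Irf9*, *Irf3* and *Irf7*, which have several IDs each, had too few counts to be tested. The list of other interferon-stimulated genes had 35 tested members of 46 in the files. While 1.51% of all tested transcripts were called higher, 10 of this list rose, 0 fell and 25 did not pass. Its median log2 fold change was 1.71, and the median difference was 0.47 at passage 34 and 2.67 at passage 42, beside 0.61 and 1.77 for the ISG15 system. Among those that rose were *Nlrc5*, an activator of MHC class I genes, with 2.63 (adjusted p = 0.00179), the antiviral enzyme *Rsad2* with 2.92 (adjusted p = 0.00224) and the class I chain *H2-D1* with 2.21 (adjusted p = 0.00993, all from edgeR's quasi-likelihood test). Calls in either direction over all tested transcripts were 381, against 543 with DESeq2, 638 with the likelihood ratio test and 612 with the exact test. They were 740 without a filter on low counts and 1092 with the replicate block. A minimum of 1 CPM in all 4 libraries gave 315 and sums of counts per gene symbol 365. The count of 10 was 8 with DESeq2, 22 with the likelihood ratio test and 21 with the exact test of edgeR. It was 30 without the filter and 27 with the replicate block. With the minimum of 1 CPM in all 4 libraries or with sums per gene symbol it was 6. Calls with 1 library left out are not given, since 1 library of a genotype then remains. Without KO replicate 2 the median log2 fold change was 0.46 for this list and 0.47 for the ISG15 system. Single genes of the list lay far from such a median, with passage 34 differences of 2.24 in *Nlrc5*, 2.22 in *Rsad2* and 1.25 in *H2-D1*. The largest of the ISG15 system at passage 34 was 1.09 in *Usp18*.

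Upstream of the system, 9 of 15 interferon receptor and signalling genes were tested. Of these 1 rose and 8 did not pass, while 1.51% of all tested transcripts were called higher. The replicate block called 2 of the 9 higher, with 1092 transcripts called over all. *Stat2*, a subunit of the complex that binds the ISRE, had 519 and 1869 counts in the KO libraries of passages 34 and 42, against 207 and 294 counts in the WT libraries. Its log2 fold change was 1.83 (standard error 0.414, edgeR quasi-likelihood adjusted p = 0.0399), with the KO library of passage 42 highest, as in the 6 genes. The receptor chain *Ifnar2* (0.73, adjusted p = 0.223) and the feedback inhibitor *Socs3* (0.80, adjusted p = 0.183) did not pass. Transcripts of 21 interferon genes themselves were under 1 CPM in every library, with a summed level of 6.26 and 4.35 CPM in the KO libraries and 3.44 and 3.69 CPM in the WT libraries. The difference in this sum was not tested. Of these genes *Ifnb1* had 3 and 10 counts in the KO libraries of passages 34 and 42, against 3 and 4 counts in the WT libraries. A difference in *Ifnb1* could not be read from so few counts.

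On the RIG-I pathway, in which TRIM25 acts, 9 of 11 genes were tested and 0 passed edgeR's quasi-likelihood test. An unadjusted p under 0.05 was seen in 3 of them, and in 12.8% of all tested transcripts. Of the 9, edgeR's exact test called 1, DESeq2 0 and the replicate block 2, with 1092 transcripts called over all by the block. The RNA sensor gene *Ddx58*, which encodes RIG-I, had 59.75 CPM (974 counts) and 282.8 CPM (5464 counts) in the KO libraries of passages 34 and 42. The WT libraries had 59.41 CPM (708 counts) and 57.23 CPM (900 counts). The genotypes were thus nearly equal at passage 34, and the log2 fold change of 1.56 (quasi-likelihood adjusted p = 0.176) rested on the KO library of passage 42. The related sensors *Ifih1* and *Dhx58* had log2 fold changes of 2.32 (adjusted p = 0.0609) and 1.46 (adjusted p = 0.358) in the quasi-likelihood test. *Dhx58* was lower in KO at passage 34 (4.785 against 7.552 CPM) and higher at passage 42 (29.45 against 5.024 CPM), so its groups overlapped. *Ifih1* rested on 18 and 49 counts in the KO libraries, against 4 and 6 counts in the WT libraries. The median of the list was −0.00, far below these 3 sensors and below the median of the 6 genes.

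Of the TRIM family, 9 of 11 genes were tested, *Trim25* among them, and no other passed (edgeR quasi-likelihood test). The replicate block called 3 of the 9 higher, with 1092 transcripts called over all. *Trim30a*, an interferon-induced relative, had 65 and 1130 counts in the KO libraries of passages 34 and 42, against 26 and 78 counts in the WT libraries (log2 fold change 3.11, adjusted p = 0.117). *Trim34a* had 1.98 (adjusted p = 0.248) and *Trim16* 0.55 (adjusted p = 0.270), and the median over the 9 genes was 0.58. Of 10 other ISG15-binding and cleaving proteins 8 were tested and 0 passed, with a median of −0.07. The deubiquitinase *Usp13* had the smallest p among them (log2 fold change 1.04, edgeR quasi-likelihood adjusted p = 0.237). It was the only one of the 8 with an unadjusted p under 0.05, a share like the 12.8% of all tested transcripts. DESeq2 and edgeR's exact test called 0 of the 8. The replicate block called 1 of them higher, with 1092 transcripts called over all.

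The enzymes that do the same steps for ubiquitin and NEDD8 were measured as counterparts of *Uba7*, *Ube2l6* and *Herc6*. Of 15 such genes 13 were tested and 0 passed edgeR's quasi-likelihood test, its exact test or DESeq2, with a median log2 fold change of −0.07 and 1 unadjusted p under 0.05 (12.8% of all tested transcripts). The ligase *Herc3*, a relative of *Herc6*, had 20.2 and 12.8 CPM in the KO libraries of passages 34 and 42, against 31.6 and 24.5 CPM in the WT libraries (log2 fold change −0.77, adjusted p = 0.280). *Nae1*, a subunit of the NEDD8 activating enzyme, had −0.36 (adjusted p = 0.543). Of 13 other ubiquitin and ubiquitin-like modifiers 11 were tested and 0 passed any of the same 3 tests. Their median was −0.04, with 1 unadjusted p under 0.05 (12.8% of all tested transcripts). The replicate block called 0 of the 13 tested counterparts and 1 of the 11 modifiers, lower in KO, with 1092 transcripts called over all.

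**Figure D5:**
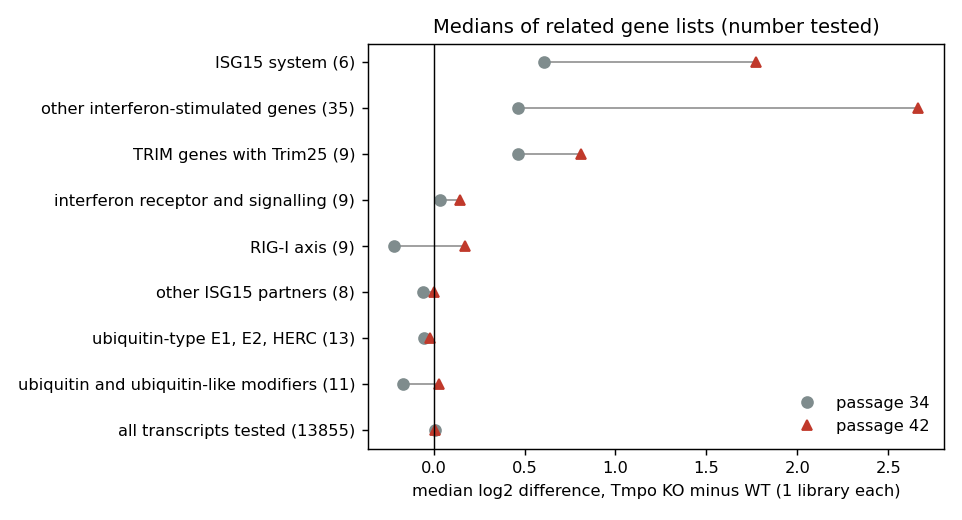
Median KO minus WT difference in log2 CPM at passage 34 and at passage 42 for each gene list, with the number of tested genes in brackets and no error bar, since each passage has 1 library per genotype. The ISG15 system lies at 0.61 and 1.77 and the other interferon-stimulated genes at 0.47 and 2.67, while all tested transcripts lie at 0.01 and 0.01.

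Markers of other skin and blood cells were summed in each library. The 8 leukocyte and macrophage markers summed to 13.5 and 10.9 CPM in the KO libraries of passages 34 and 42, against 8.14 and 7.63 CPM in the WT libraries, with 6 of the 8 under 1 CPM everywhere. The counted IDs of *Cd68* and *Itgam* were at 0 in all libraries, but both genes have 2 IDs and reads shared between them were set aside, so these zeros do not show that the genes were silent. Most of the sum was *Csf1r*, the receptor of a macrophage growth factor, with 10.7 and 9.21 CPM in KO and 5.54 and 5.21 CPM in WT. The part of these markers in the values of the 6 genes was not tested. The 4 plasmacytoid dendritic cell markers summed to 32.9 and 152 CPM in the KO libraries, against 15.1 and 15.1 CPM in the WT libraries. Of this sum *Bst2*, which is itself interferon-stimulated, made up 26.2 and 146 CPM in KO and 9.06 and 10.2 CPM in WT. *Tcf4* was also higher in both KO libraries, with 3.50 and 3.05 CPM against 2.10 and 1.02 CPM in WT. *Siglech* was lower, with 0.798 and 1.34 CPM in KO and 1.85 and 1.59 CPM in WT. For *Irf8* the groups overlapped, with 2.39 and 1.81 CPM in KO and 2.10 and 2.23 CPM in WT. Keratinocyte markers summed to between 8.23 and 10.6 CPM in KO and between 7.63 and 9.23 CPM in WT, endothelial markers to between 5.38 and 5.89 CPM in KO and between 5.29 and 6.11 CPM in WT, and melanocyte markers to between 33.0 and 43.7 CPM in KO and between 29.7 and 38.4 CPM in WT. Most of the melanocyte sum was *Tyr*, the pigment enzyme tyrosinase, with 40.1 and 29.9 CPM in the KO libraries of passages 34 and 42, against 26.4 and 35.0 CPM in the WT libraries. Of the 9 tested fibroblast markers 1 rose and 8 did not pass, with a median log2 fold change of −0.33, and 2 of the 9 were higher in KO at passage 34. *Thy1*, a surface protein of fibroblasts, rose in KO (log2 fold change 1.81, edgeR quasi-likelihood adjusted p = 0.00469) with 1286 and 768 CPM, against 314 and 274 CPM in WT, while the matrix proteoglycan gene *Dcn* had a log2 fold change of −1.18 (adjusted p = 0.194). In bulk RNA, more cells that express a gene and more RNA per cell cannot be told apart.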

How the data were processed

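RNA was sequenced in 2 *Tmpo* KO and 2 *Tmpo* WT libraries, grouped by the genotype in the labels. The deposited values are raw counts, which the authors made by trimming with cutadapt, mapping to mm9 with TopHat2 (2.0.9 in the submitters' processing notes) and counting, with htseq-count, reads on RefSeq transcripts whose mapping quality was above 20. Which strand setting the counting had is not stated in the sources read here, and none of the 6 genes overlapped another gene in the annotation used. Reads given to no transcript (49.9% to 56.5%) and ambiguous reads (12.1% to 13.4%) stayed out of library sizes and tests.

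The 13855 transcripts that reached 1 CPM in both replicates of either genotype were fitted with edgeR 4.0.16 in R 4.3.3 (TMM, quasi-likelihood test, Benjamini-Hochberg adjusted p under 0.05), with a biological coefficient of variation of 21.8%. The standard error is the fold change divided by the square root of F. Symbols came from the RefSeq table of GRCm38.p6, which matched 32308 of 32757 IDs. Positions, exon numbers, lengths and near copies were read from the mm9 genome and its gene annotation, not from the RefSeq IDs. Ratios of libraries have exact conditional binomial 95% intervals and levels Poisson ones. Reads are not independent molecules, so these cover counting error only.

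The text names all 6 genes, *Tmpo*, up to 3 genes of smallest p in each list and the 5 transcripts of nearest profile. Other genes are named where a count or a marker sum rests on them, after their values were seen. Some genes of the lists are not reported here by name. The 6 genes and the lists were chosen with earlier results of these data known, so the number called in a list is not independent support for a direction. Alternatives were RLE size factors, library totals, edgeR's likelihood ratio and exact tests, DESeq2 1.42.0, 2 other filters, sums of counts per gene symbol, a replicate block, a prior count of 0.5 and leaving out each library. The fit was tested on simulated data.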

Additional observations from a re-analysis of the deposited data

Results flagged for a closer look

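The difference between *Tmpo* KO and WT had opposite signs at the 2 passages in 2 of the 6 genes. For *Uba7* the KO minus WT difference in log2 CPM was −0.73 at passage 34 and 1.49 at passage 42. For *Ube2l6* it was −0.34 at passage 34 and 0.68 at passage 42. Each passage holds 1 library per genotype, so the difference between the passages was not tested.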

How the results depend on the processing

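The fold changes of *Isg15*, *Herc6*, *Usp18* and *Trim25* stayed above 0 in all 13 alternative fits, between 0.30 and 2.14 for *Isg15*, 0.65 and 1.70 for *Herc6*, 0.92 and 4.77 for *Usp18* and 0.72 and 1.93 for *Trim25* on the log2 scale. Those of *Uba7* ran from −0.63 to 1.32 and those of *Ube2l6* from −0.36 to 0.64, with the lowest value, below 0 and not past the threshold, without KO replicate 2 and the highest without KO replicate 1. Of the 6 genes 2 were called higher, against 4 with edgeR's likelihood ratio test, 4 with no filter on low counts, 1 with a minimum of 1 CPM in all 4 libraries, 0 with sums of counts per gene symbol, and 0 to 5 with 1 library left out (0 without KO replicate 2, WT replicate 1 or WT replicate 2, and 5 without KO replicate 1). DESeq2, edgeR's exact test and library totals called 3 each and RLE size factors 2. The 381 transcripts called over all were 612 with the exact test, 638 with the likelihood ratio test, 740 with no filter and between 109 and 1291 with 1 library left out (109 without WT replicate 2, 175 without WT replicate 1, 842 without KO replicate 1 and 1291 without KO replicate 2). The cause of these changes was not tested. With the replicate number as a block, 1092 transcripts and 4 of the 6 genes were called, *Isg15* (adjusted p = 3.63e-04) and *Herc6* (adjusted p = 1.81e-04) in edgeR's quasi-likelihood test among them. The labels give same-numbered libraries the same passage, no source says that they were handled together, and the block leaves 1 residual degree of freedom. Across the tested transcripts, the log2 CPM difference between replicates 1 and 2 in WT had a correlation of 0.175 with that in KO. A prior count of 0.5 or library totals moved no within-passage difference of the 6 genes beyond its counting interval.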
